A study of Homo sapiens with 4 samples.

Results

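Introns of 100 kb or more were followed through ribosome profiling of K562 and HepG2, both established human cell lines. K562 is an erythroleukaemia line and HepG2 a liver tumour line, and neither was given a treatment in the labels. The labels list 2 samples for each line, and each line has 1 pooled table that gives, for every annotated exon junction, the number of ribosome-protected RNA fragments (footprints) that cross it. A junction was taken as a member when its intron spanned 100000 bases or more, both ends included, and belonged to a single gene. This held for 4354 of the 344830 single-gene junctions, out of 350863 junctions in all. The members lie in 1911 genes, of which 1281 are protein-coding, 611 are of other types and 19 had no record in the annotation used here. Of these genes 992 have 1 long intron and 919 have several, up to 40 in a gene. Intron lengths ran from 100021 to 1240120 bases, with a median of 143697.

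An intron is removed from the precursor RNA when the spliceosome joins its 5′ splice site (donor) to its 3′ splice site (acceptor). The distance between the sites does not appear in the mature messenger RNA, so a footprint across the junction looks the same for a short and a long intron. Very long introns are known from genes of the nervous system, from cell adhesion genes and from common fragile sites, and they often separate the first exons of a gene from the rest. A footprint on a junction between coding exons comes from a ribosome reading through that splice. A footprint in a 5′ untranslated region (5′ UTR) comes from a ribosome at an upstream reading frame or from other protected RNA, and the tables do not tell these apart.

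A few spliced junctions are printed here because the results turn on them. Each line gives the 15 bases before the junction in lower case and the 15 bases after it in capitals, 5′ to 3′ on the gene's strand, from the GENCODE 29 transcripts on GRCh38, with the intron's length in the name. The first 4 are coding junctions with many reads in HepG2 or in both lines. The NEDD4L pair shares the exon after the junction, and the FGF13 and PDGFC pairs share the exon before it. ABL1 and IMMP2L stand for a kinase gene and for one of the longest introns with reads in both lines.
GPC3, 198873 bases: ctgcggttttccaagAGGCCTTTGAAATTG
GMDS, 187516 bases: aaggactatgtggagGCTATGTGGTTGATG
COMMD1, 134848 bases: ggcaaatatggacagGAATCTGAATTTCTG
HMGA2, 112813 bases: agacctaggaaatggCCACAACAAGTTGTT
NEDD4L, 345937 bases: ctttccgaagacgagGCTGTGCTACTCATG
NEDD4L, 1453 bases: cagtggttctggaagGCTGTGCTACTCATG
FGF13, 346379 bases: aagatgcttctaaggTTCTGGATGACGCCC
FGF13, 495130 bases: aagatgcttctaaggAGCCTCAGCTTAAGG
PDGFC, 120369 bases: acaaggaacagaacgGAGTACAAGATCCTC
PDGFC, 109296 bases: acaaggaacagaacgGTAGGAACTATATCC
ABL1, 139608 bases: tttttgtggaacatgAAGCCCTTCAGCGGC
IMMP2L, 523672 bases: cattgtatcattggtGTCTCCTAAAAACCC

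The single-gene junctions held 7222089 uniquely mapped reads in K562 and 9607307 in HepG2. All 7 erythroid marker genes checked had more junction reads in K562, at 27 to 7365 against 0 to 17, and all 7 hepatocyte markers had more in HepG2, at 1005 to 371360 against 0 to 162. Each line has 1 pooled table, so the spread between replicates could not be measured and no p-value is given. The 95% intervals below are exact and cover counting error only, and footprints without molecular identifiers are not independent molecules.

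Most very long introns carried no footprint. In K562, 538 of the 4354 (12.4%) had 1 or more uniquely mapped reads, against 35.1% of all single-gene junctions. In HepG2 the count was 504 (11.6%), against 35.8% of all single-gene junctions. HepG2 had 478 after its table was thinned to the smaller total. Both lines read 304 long introns, which is 56.5% of those read in K562 and 60.3% of those read in HepG2. For shorter introns the shared part was larger, at 81.4% and 79.9%. K562 alone read 234 long introns, HepG2 alone 200, and 3616 were read in neither line. With 5 or more reads asked for, the counts were 259 in K562 and 285 in HepG2, and 248 in HepG2 after thinning. The first 2 are 5.95% and 6.55% of long introns, against 23.1% and 24.7% of all single-gene junctions.

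By gene, 386 of the 1911 genes were read at a long intron in K562 and 365 in HepG2, with 236 in both. Far more of these genes had a read at some junction, long or short: 870 in K562 and 778 in HepG2. Of the protein-coding genes 437 of 1281 were read at a long intron in either line, and of the other gene types 74 of 611. The protein-coding genes split nearly evenly, with 104 read at a long intron in K562 only and 110 in HepG2 only. Of the other types, 44 were read at a long intron in K562 only and 18 in HepG2 only, and 163 of these genes had a read at any junction in K562 against 96 in HepG2.

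The share of junctions read fell with intron length within the long class too. From 100 to 200 kb, 14.0% of introns were read in K562 and 13.2% in HepG2. From 200 to 500 kb these shares were 7.24% and 6.51%, and above 500 kb, with 72 introns, they were 4.17% and 5.56%. The genes differ along this scale, so coding junctions were also compared among genes whose most-read junction had 50 or more reads. There the share read went from 85.2% in K562 and 85.1% in HepG2 at 1 kb or less to 56.3% and 58.2% at 100 to 200 kb. At 200 to 500 kb it was 35.7% of 42 introns in K562 and 48.9% of 45 in HepG2. In these genes a coding intron of 100 to 200 kb had a median of 1.14% of the reads of its gene's top junction in K562 and 1.72% in HepG2, where those of 1 kb or less had 14.8% and 17.2%.

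**Figure D1:**
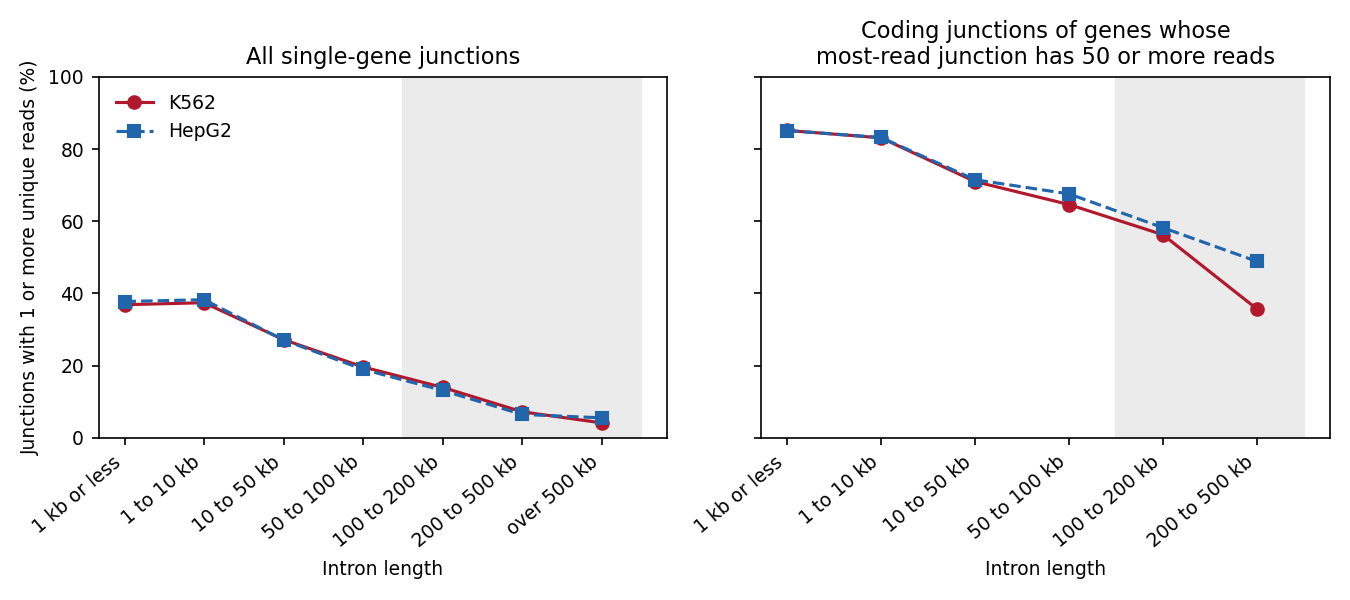
Percentage of junctions with 1 or more uniquely mapped reads (y) by intron length (x) in K562 (circles) and HepG2 (squares), for all single-gene junctions (left) and for coding junctions of genes whose most-read junction has 50 or more reads (right); the shaded bins are 100 kb or more. At 100 to 200 kb the share is 14.0% and 13.2% on the left and 56.3% and 58.2% on the right, under the bins up to 100 kb; the right panel leaves out introns over 500 kb, of which K562 had 1 and HepG2 3.

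Long introns took 12554 unique junction reads in K562 and 14609 in HepG2. These are 0.174% of the single-gene reads in K562 (95% interval 0.171 to 0.177) and 0.152% in HepG2 (0.150 to 0.155), a ratio of 1.14 (1.12 to 1.17). The direction of this ratio rests on choices of what is counted. It was 0.987 with all mapped reads, 0.982 without the 10 most-read genes of each line in the denominator, and 0.695 (0.674 to 0.716) over coding junctions alone. Few introns carry the reads: the 10 most-read long introns of K562 hold 40.7% of its long-intron reads, and the 10 of HepG2 hold 43.5%. The long introns of GPC3 alone hold 23.0% of the HepG2 reads and none of the K562 reads. All 3367 of these GPC3 reads are on coding junctions, out of 12641 coding long-intron reads in HepG2. The coding ratio without GPC3 was not computed. Those of ENOX2 hold 17.2% in K562 and 1.15% in HepG2. Without GPC3, ENOX2 and FUT8 the long introns held 0.134% of K562 reads and 0.108% of HepG2 reads.

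The lines differed in the transcript part where long introns were read. Coding junctions gave 6328 of the K562 long-intron reads (50.4%) and 12641 of the HepG2 ones (86.5%). Junctions within 5′ UTRs gave 5189 reads in K562 (41.3%) and 1532 in HepG2 (10.5%). Noncoding transcripts gave 1001 reads (7.97%) and 435 (2.98%), and 3′ UTR junctions 18 and 1. Among shorter introns 5′ UTR junctions hold 6.41% of their reads in K562 and 3.28% in HepG2, and noncoding ones 1.16% and 0.325%. Of all 5′ UTR junction reads, long introns hold 1.11% in K562 and 0.485% in HepG2, and of all noncoding junction reads 1.18% and 1.37%. Of the K562 5′ UTR reads across long introns, 2161 are ENOX2's.

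**Figure D2:**
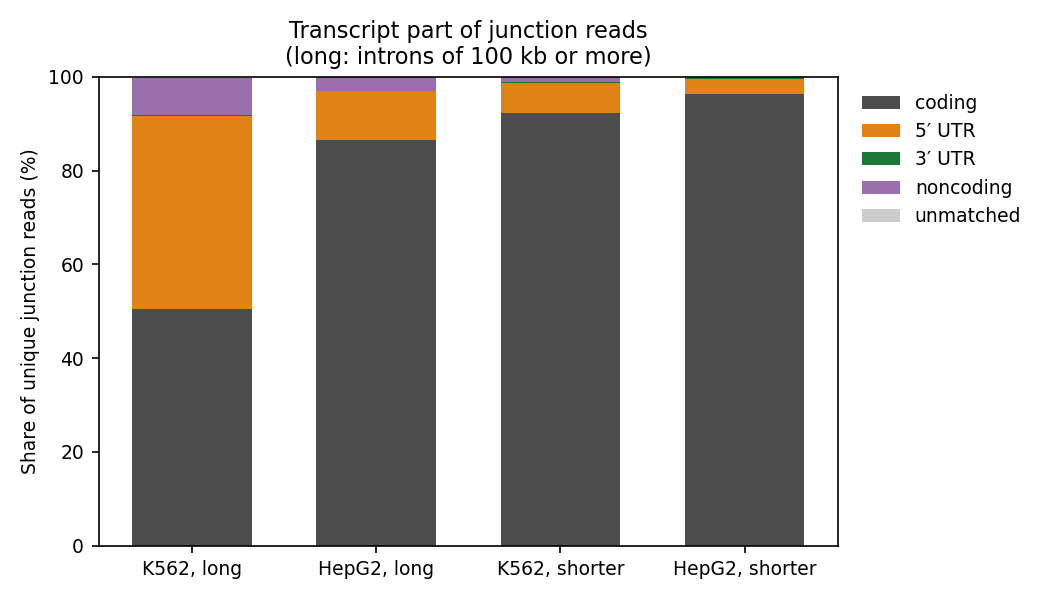
Share of unique junction reads (y, percent) by transcript part for long introns of 100 kb or more and for shorter introns in each line; each bar adds to the reads of that line and length class. Coding junctions make up 50.4% of long-intron reads in K562 and 86.5% in HepG2, while 5′ UTR junctions make up 41.3% and 10.5%.

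Long introns also lie at other places in the transcript than shorter ones. Of the 4354 members, 1826 join coding parts, 1668 lie in noncoding transcripts, 773 in 5′ UTRs and 66 in 3′ UTRs, and 21 could not be matched to an annotated transcript. The 5′ UTR share is 17.8% of long introns against 10.1% of shorter ones, and 41.8% of long introns are first introns in every transcript that has them, against 24.2%. Coding long introns sit early in the protein. They follow a median of 291 coding bases, against 827 for shorter introns. Among the coding introns that were read, 31.3% of the long and 9.97% of the shorter ones lay within 150 bases of the start codon.

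The read counts of single long introns were then compared between the lines. Counts were scaled by TMM (trimmed mean of M values), which set effective depths of 8336980 in K562 and 8298281 in HepG2, so ratios lie close to those of the raw counts. The comparison took in introns with at least 20 reads in the sum of both tables, and called an intron for 1 line if all of the 95% interval of its ratio was past 2-fold. Of 201 such long introns in 169 genes, 42 (20.9%) were higher in K562, against 10.3% of all junctions compared. In HepG2 39 (19.4%) were higher, against 17.6% of all junctions. The other 120 met neither limit. The median log2 ratio was -0.15, next to -0.13 for all junctions, but the middle of the distribution was wider, with quartiles of -1.44 and 1.55 against -1.24 and 0.80 (a count of 0 was set to the 3-read floor).

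By transcript part, 23 of 161 coding long introns were higher in K562 (14.3%, against 9.21% of all coding junctions) and 37 in HepG2 (23.0%, against 18.03%). Of 25 in 5′ UTRs 14 were higher in K562 and 1 in HepG2, and their median log2 ratio was 2.41. All 3059 5′ UTR junctions compared also lean to K562, with 788 higher there, 319 higher in HepG2 and a median of 0.87. Of 15 noncoding long introns 5 were higher in K562 (33.3%) and 1 in HepG2 (6.67%), where all noncoding junctions had 40.6% and 10.7%, so these counts are near the background. With scaling by total reads all log2 ratios move up by 0.42, and 54 long introns were then higher in K562 and 38 in HepG2. The K562 share of the calls thereby moved from 51.9% to 58.7% for long introns and from 36.9% to 53.6% for all junctions.

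**Figure D3:**
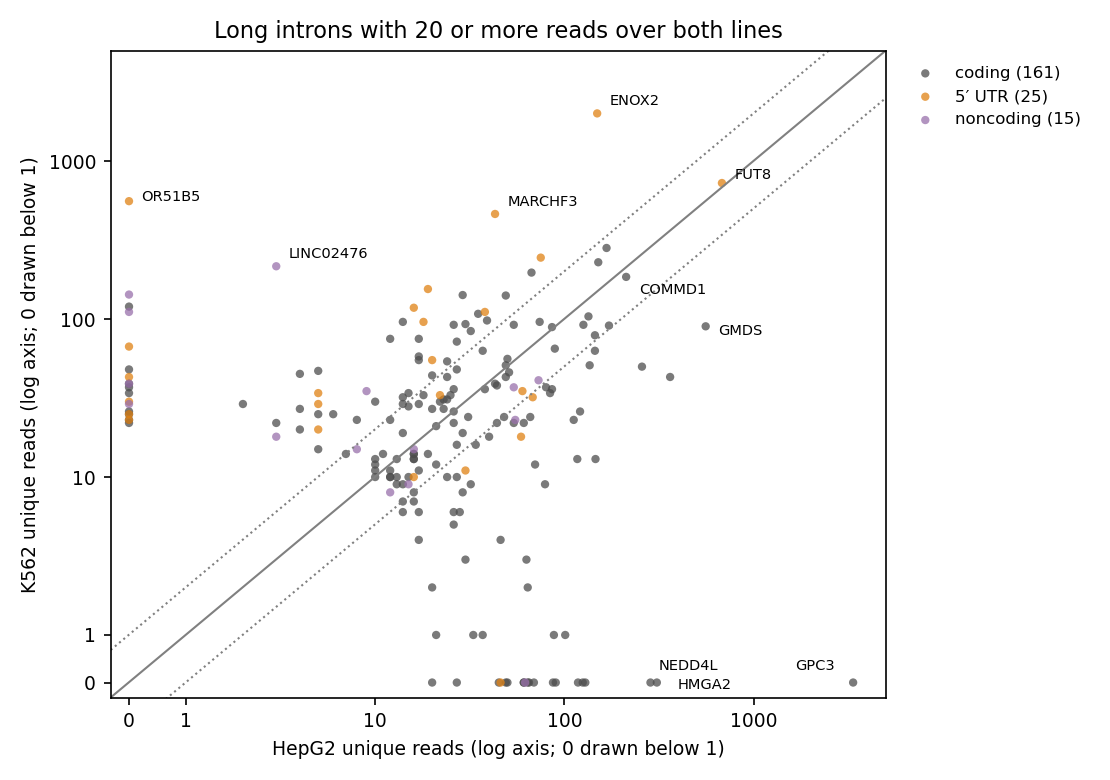
Unique reads of the 201 long introns with 20 or more reads over both lines, HepG2 on x and K562 on y, both log axes with 0 drawn below 1; colours give the transcript part, the solid line equal scaled levels and the dotted lines 2-fold. Orange 5′ UTR points such as ENOX2 (2006 and 149 reads) and OR51B5 (558 and 0) sit above the line, and GPC3 (0 and 3357) lies at the far right on the floor.

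The coding long introns higher in HepG2 with the most reads were those of GPC3, GMDS, HMGA2, NEDD4L and AIG1. The 198873-base intron of GPC3, a heparan sulfate proteoglycan of the glypican family, was crossed by 0 K562 reads and 3357 HepG2 reads, at least 914-fold more in HepG2 (chrX:133754177-133953049). The rest of GPC3 had 1 read in K562 and 29066 in HepG2. With so few K562 reads, whether use of the junction differs from the rest of its gene could not be measured. GPC6, another glypican, had 4 read long introns of 197183 to 317646 bases, with 10 to 90 reads each in HepG2 and none in K562. GMDS makes the precursor of GDP-fucose, and its 3 long introns with 20 or more reads had 90, 43 and 13 K562 reads against 558, 362 and 146 HepG2 reads. All 3 GMDS introns were called higher in HepG2, by 6.23-fold (4.98 to 7.87), 8.46-fold (6.15 to 11.9) and 11.3-fold. Next to them the shorter coding junctions of GMDS with 10 or more reads had 7 to 70 reads in K562 and 61 to 603 in HepG2. The counts of the 3 long introns overlap with these in both lines. A further GMDS long intron of 120589 bases had 4 and 14 reads, under all of these shorter junctions.

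HMGA2, an AT-hook chromatin protein, had 0 and 308 reads across its 112813-base intron, at least 83.4-fold higher in HepG2. The rest of HMGA2 was also unread in K562, with 0 reads against 1133. AIG1, a lipid hydrolase, had 50 K562 reads and 257 HepG2 reads across 118926 bases, 5.16-fold higher in HepG2 (3.80 to 7.14). SNTB1, a syntrophin of the dystrophin complex, had 0 and 129 reads. DDAH1, which breaks down methylated arginines, had 0 and 125. CADM1, a cell adhesion molecule, had 0 and 118 across 263850 bases, and TSPAN7, a tetraspanin, 0 and 87. These last 4 had at most 1 read elsewhere in the gene in K562 and 319 to 1711 in HepG2. For TSPAN7, 335 of these 336 HepG2 reads fell in the 3′ UTR and 1 on its shorter coding junctions.

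In K562 the highest counts fell on 5′ UTR introns. ENOX2, a cell-surface oxidase, had 2006 K562 reads and 149 HepG2 reads across a 117993-base intron that ends 184 bases before the start codon (chrX:130783691-130901683), 13.4-fold higher in K562 (11.3 to 15.9). A second ENOX2 long intron of 198429 bases had 155 and 19 reads. The coding junctions of ENOX2 with 10 or more reads had 9 to 70 reads in K562 and 0 to 8 in HepG2, under the 117993-base junction in both lines. MARCHF3, a membrane-bound ubiquitin ligase, had 463 and 43 reads on its 112122-base 5′ UTR intron, 10.7-fold higher in K562 (7.83 to 15.01), while its coding junctions had 13 and 24 K562 reads against 2 and 8 from HepG2. ANKRD11, a chromatin regulator, had 245 and 75 across 101208 bases, 3.25-fold higher in K562 (2.50 to 4.27), and a neighbouring junction whose acceptor lies 3 bases away had 111 and 38.

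OR51B5, an olfactory receptor gene beside the β-globin cluster, was crossed at its 158658-base first intron by 558 K562 reads and 0 HepG2 reads. This is at least 150-fold more in K562. Its shorter junctions with 10 or more reads had 40 to 212 reads, all in K562, and none of these junctions joins coding parts. The donor of that intron, at position 5505568 of chromosome 11, is shared with 2 long introns of HBE1, the embryonic ε-globin gene. These HBE1 introns of 235412 and 223617 bases had 25 and 13 K562 reads and none from HepG2. The 2 coding junctions of HBE1 had 86 and 56 unique reads from K562 and none from HepG2. The first of them had 7436 mapped reads in K562 and 3 in HepG2, so its unique count leaves out nearly all of its reads, while the long introns had no mapped reads beyond the unique ones.

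Noncoding and coding introns were also among those called for K562. LINC02476, a long noncoding RNA gene, had 216 K562 reads and 3 HepG2 reads across 106418 bases, a ratio of 71.7 (24.2 to 350.2). MIR548XHG, a microRNA host gene, had 143 and 0, and the noncoding gene MGC4859 had 111 and 0 across 218304 bases. Among coding introns, CHST11, a chondroitin sulfotransferase, had 120 and 0 reads across 154957 bases, at least 31.9-fold higher in K562. FGF13, an intracellular fibroblast growth factor homologue that binds sodium channels, had 48 and 0 across 346379 bases and 39 and 0 across 495130 bases. Both FGF13 introns leave the same exon, as the printed pair shows, and rejoin different exons. NSMCE2, a SUMO ligase of the SMC5/6 complex, had 197 and 67 across 174962 bases, 2.93-fold higher in K562 (2.21 to 3.92).

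Several of the most-read long introns met neither limit. FUT8, which adds core fucose to N-glycans, had 727 and 680 reads across its 105618-base 5′ UTR intron, a ratio of 1.06 (0.957 to 1.18). Its coding junctions with 10 or more reads had 7 to 29 reads in K562 and 2 to 10 in HepG2, so the FUT8 leader junction stands above its coding part in both lines. COMMD1, a regulator of copper transport and NF-κB, had 185 and 212 across 134848 bases, a ratio of 0.869 (0.709 to 1.06), which turns above 1 when total reads set the scale. Its relative COMMD10 had 229 and 151, a ratio of 1.51 (1.22 to 1.87). NDUFAF2, an assembly factor of respiratory complex I, had 282 and 167 unique reads, from 586 and 459 mapped ones, so many of its reads also map elsewhere.

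Long introns mostly moved with the other junctions of their gene. Of 194 long introns with enough reads on the rest of the gene, 168 lay on the same side of 1 as that rest, and the log2 ratios had a Pearson r of 0.88 and a Spearman rho of 0.86. These are descriptions over introns of 2 tables, some of which share a gene. To separate use of the junction from the level of the gene, an odds ratio set each long intron against all other junctions of its gene. It was past 2-fold with its whole interval toward K562 in 7 introns (2.27% of all junctions compared were so called) and toward HepG2 in 6 (2.01% of all junctions). These are 13 of 194 long introns. Among 24 long introns in 5′ UTRs, 3 were called toward K562 and 0 toward HepG2. Over all 2884 5′ UTR junctions compared, 363 and 69 were. Coding long introns had 4 and 6 calls out of 160, and all 64485 coding junctions compared had 1115 and 1264.

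The 7 toward K562 include 2 focal adhesion genes. PTK2, the focal adhesion kinase, had 118 and 16 reads on a 110355-base 5′ UTR intron while the rest of the gene had 1268 and 984, an odds ratio of 5.72 (3.35 to 10.4). LIMS1, a focal adhesion adaptor, had 47 and 5 on a first intron against 262 and 183 on the rest, an odds ratio of 6.57 (2.55 to 21.5). CPQ, a carboxypeptidase, had 29 and 5 on a 5′ UTR first intron against 93 and 174 on the rest, an odds ratio of 10.9 (3.94 to 36.8). Of the reads on the rest of CPQ, 91 and 174 were on shorter coding junctions. The seventh is a SMYD3 intron described below with its splice site. SUGCT, a mitochondrial CoA transferase, had 84 and 32 against 249 and 410, an odds ratio of 4.32 (2.75 to 6.91). MBNL1, a splicing regulator, had 75 and 17 against 183 and 174, an odds ratio of 4.19 (2.33 to 7.87). PLCB1, a phospholipase, had 16 and 27 against 68 and 485, an odds ratio of 4.23 (2.01 to 8.59). PLCB1 lies on chromosome 20, whose genes had a median HepG2 to K562 ratio of 2.48 against 1.005 over all genes. A level shared by all junctions of a gene cancels in an odds ratio taken within that gene.

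ABL1, the tyrosine kinase gene, had the lowest odds ratio among those of the 13 that were read in both lines and belong to the named introns. Its 139608-base first coding intron had 6 reads in K562 and 17 in HepG2, while the rest of the gene had 543 and 126, an odds ratio of 0.082 (0.026 to 0.224). The other first exon, 18538 bases from the shared acceptor, had 1 and 9 reads. Past that acceptor the order turned: the next ABL1 junctions had 63 and 9, 45 and 15, and 111 and 10 reads. K562 is known to carry the BCR-ABL1 fusion, whose junction joins exons of 2 chromosomes and so is no annotated intron.

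**Figure D4:**
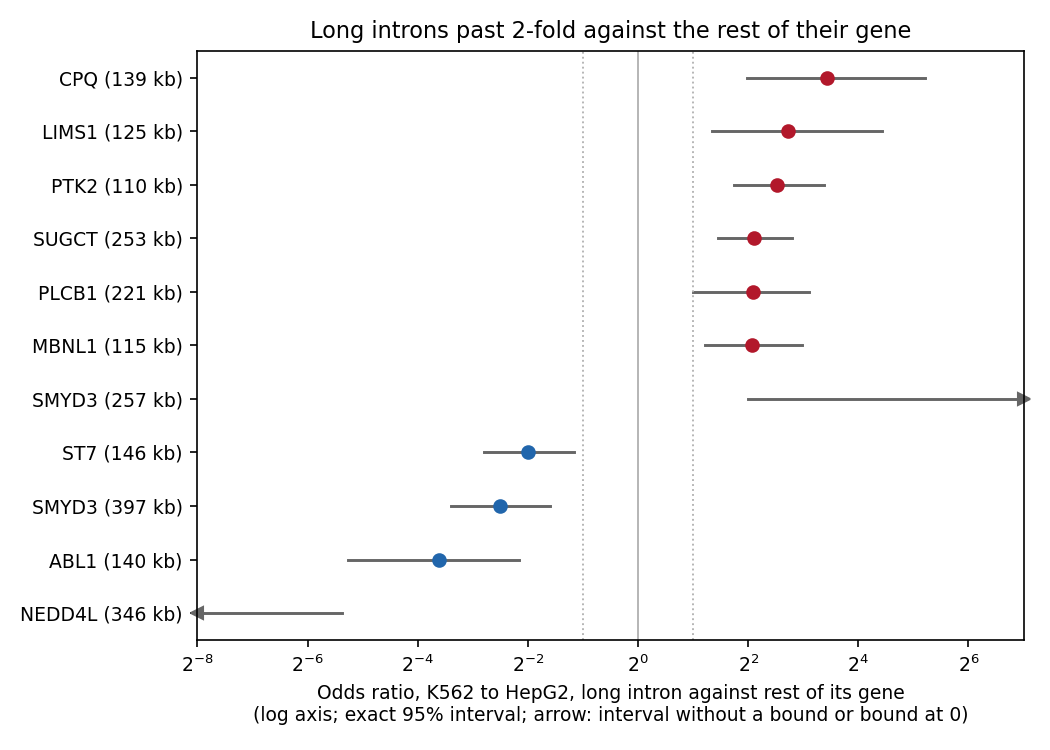
Odds ratio of K562 to HepG2 reads, long intron against the rest of its gene (x, log axis), with exact 95% intervals; dotted lines mark 2-fold and arrows an interval that reaches 0 or has no upper bound. The plot holds 11 of the 13 long introns past 2-fold, 6 of them with a point value above 4 and ABL1 at 0.082; the 151959-base intron of SMYD3, with 9 and 13 reads, and 1 other are not drawn.

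NEDD4L, a HECT-type ubiquitin ligase, gave the widest split. Its 345937-base junction joins the exon that ends 48 coding bases after the start codon straight to an exon near the 3′ end of the coding sequence (chr18:58044709-58390645). All of its 285 reads were from HepG2. At that acceptor 0 of 38 K562 reads used the junction, with an exact interval for the share up to 9.25%. In HepG2 285 of 324 reads (88.0%) used it. The other reads at the acceptor, 38 in K562 and 39 in HepG2, crossed the 1453-base intron from the preceding exon. The next 2 junctions, which lie after the shared acceptor, had 41 and 42 K562 reads against 327 and 270 HepG2 reads. The other 2 junctions from the shared donor had 4 and 7 K562 reads against 59 and 10 HepG2 reads. Further inside the skipped stretch, coding junctions with 10 or more reads over both lines had 6 to 86 reads in K562 and 1 to 90 in HepG2, so the lines overlap there.

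**Figure D5:**
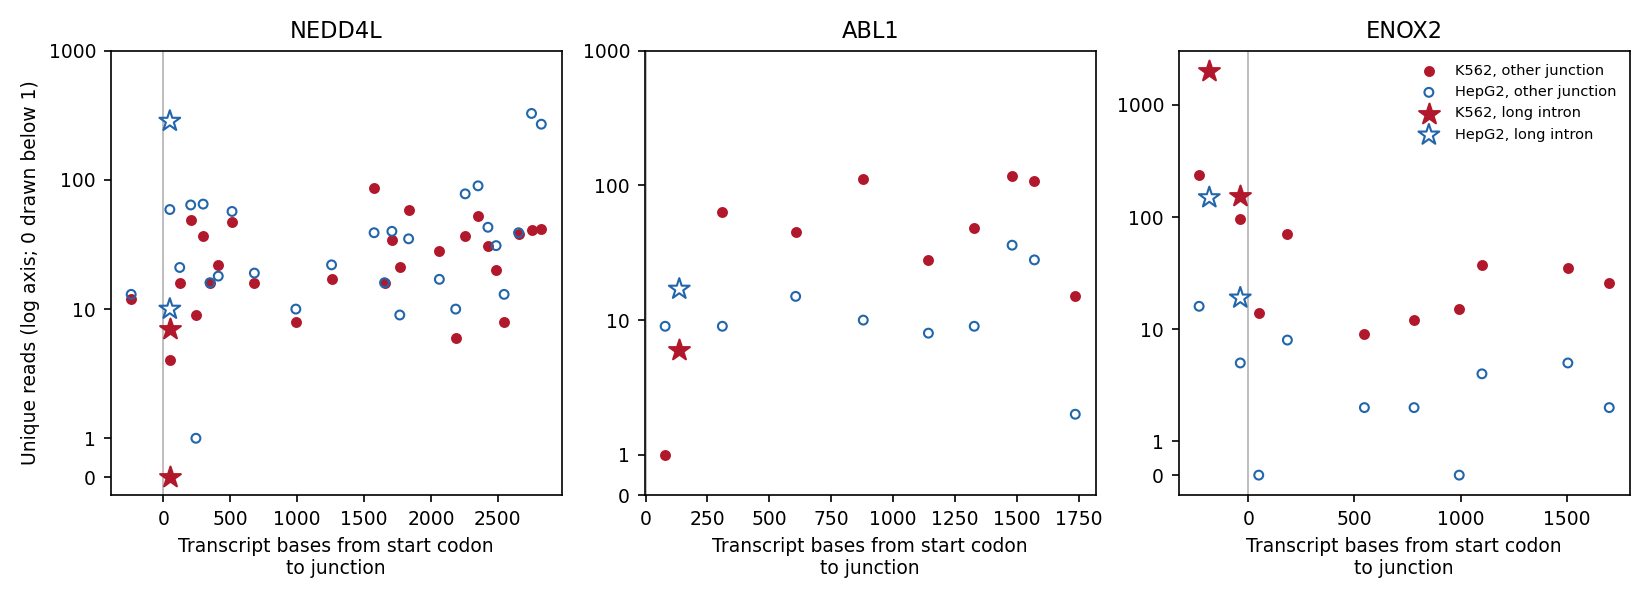
Unique reads (y, log axis, 0 drawn below 1) of single junctions of NEDD4L, ABL1 and ENOX2 by transcript distance from the start codon (x, bases; negative values lie in the 5′ UTR), K562 filled and HepG2 open, stars for long introns. In NEDD4L the HepG2 star (285 reads) and the last 2 HepG2 points (327 and 270) stand above the rest, in ABL1 the K562 points rise past the star of 6 reads, and in ENOX2 the star of 2006 reads stands above all coding junctions.

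Splice sites shared with other junctions gave 160 measured long-intron shares. Of these, 11 in 9 genes differed by 20 percentage points or more with intervals that do not overlap, against 3.9% of all junctions at measured sites. Beside NEDD4L, SMYD3 and ST7 had the largest differences. SMYD3, a lysine methyltransferase, has an acceptor with 164 reads in K562 and 26 in HepG2. All 26 HepG2 reads came over its 397263-base coding intron, which took 22 of the 164 K562 reads (13.4%). The other K562 reads came mainly from other donors, 67 over a 256805-base intron in the 5′ UTR and 72 over a 58456-base noncoding one. HepG2 had 0 of 26 reads for each, with an exact interval for the share up to 13.2%. On the SMYD3 transcript the coding junctions ahead of this acceptor had 26 to 119 reads in K562 and 24 to 48 in HepG2, next to 97 to 446 and 7 to 60 at the first 4 after it, long introns aside. The odds ratio of the 397263-base intron was 0.177 (0.095 to 0.329), and the interval for the 256805-base intron began at 4.01 with no upper bound.

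For ST7 the 146070-base intron took 36 of 230 acceptor reads in K562 (15.7%) and 26 of 28 in HepG2 (92.9%). An 84747-base intron from another first exon took 178 of the 230 in K562 and 0 of 28 in HepG2. PDGFC, a growth factor, has 2 long introns that leave 1 donor. The 120369-base one held 9 of the 20 K562 reads and 32 of the 37 HepG2 reads (45.0% and 86.5%), and the 109296-base one 10 of 20 and 4 of 37. THRB, the thyroid hormone receptor β, sent 55 of 62 donor reads over its 108298-base 5′ UTR intron in K562 (88.7%) and 20 of 38 in HepG2 (52.6%). TBC1D5, a Rab GTPase activator, sent 18 of 50 (36.0%) and 59 of 85 (69.4%) over 115243 bases.

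Long introns at 3 more sites were counted. The 106191-base intron of ADCY9, an adenylyl cyclase, took 1 of 21 acceptor reads in K562 (4.76%) and 14 of 34 in HepG2 (41.2%). SEPTIN9, a cytoskeletal GTPase, sent 14 of 34 donor reads (41.2%) over its 120504-base intron in K562 and 16 of 122 (13.1%) in HepG2. AIG1 sent 50 of 70 (71.4%) and 257 of 278 (92.4%) over the 118926-base intron named above. With a difference of 40 points asked for, 5 long introns remained counted, and with 50 reads at a site in each line, 2 of 75 were.

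The longest introns with 5 or more reads reached past 400 kb. LRMDA, a gene of melanocyte differentiation, had 0 reads in K562 and 16 in HepG2 across 597513 bases, the longest intron with any read. IMMP2L, a subunit of the mitochondrial inner membrane peptidase, had 11 and 12 across 523672 bases, while the rest of IMMP2L was 3.39-fold higher in K562. FHIT, a dinucleotide hydrolase at the FRA3B fragile site, had 2 and 6 across 522707 bases. The 495130-base FGF13 intron had 39 and 0, and a 415907-base intron of the junctional scaffold MAGI1 had 0 and 20. The intervals of the IMMP2L and FHIT ratios include equal levels, and the other 3 introns were read in 1 line only.

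The length limit cuts through a range of introns that were read in both lines. Within 5 kb above the limit the most-read introns were those of GMDS (90 and 558 reads), ANKRD11 (245 and 75) and RSU1, a focal adhesion protein (92 and 126). Within 5 kb below it they were SDC2, a syndecan (5 and 941), CAMK2D, a calmodulin-dependent kinase (11 and 106), and FBXW11, an F-box protein (29 and 78).

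Several genes offer more than 1 long intron for comparison. In 23 genes 2 or more long introns had 20 or more reads, and the median range of log2 ratios within a gene was 1.23. In 20 of the 23 all long introns lay on the same side of 1, and in 0 was 1 intron called for K562 and another for HepG2. SMYD3 had the widest range, 5.01, between a 5′ UTR and a coding intron. The 2 long introns of VTI1A, a vesicle fusion protein, ranged over 0.058, the narrowest range of the 23.

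The gene lists were written from general knowledge, with earlier results of these data known and some genes in several lists. Their members were read unevenly. Of 57 neural adhesion and guidance genes with a long intron, 49 were read at one in neither line; of all 1911 genes with a long intron, 515 were read at one in either line. The 3 compared, CADM1, the guidance receptor ROBO1 (0 and 61 reads) and N-cadherin, CDH2 (0 and 49), were all higher in HepG2. For the calls of each list, the shares over all long introns compared were 20.9% higher in K562 and 19.4% in HepG2. Over all junctions compared they were 10.3% and 17.6%. Of 41 ion channel and neurotransmitter receptor genes 37 were unread, and the other 4 had 1 read each, 3 in K562 and 1 in HepG2. Of 28 common fragile site genes 8 were read in K562 and 12 in HepG2, and of their 6 compared introns 0 were called in either direction.

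Liver and epithelial genes had 12 compared introns, 8 higher in HepG2 and 0 in K562, at a median log2 of -4.05 against -0.15 for all long introns. Over all long introns compared, 19.4% were higher in HepG2 and 20.9% in K562. The 8 are those of GPC3, GPC6 with 3, CDH2, the adhesion phosphatase PTPRK (2 and 64 reads), LPP, a focal adhesion protein (0 and 50), and MAGI1. Blood cell genes had 7 compared, 4 higher in K562 and 0 in HepG2, with a median of 2.41. They were 2 introns of EPB41L2 (96 and 18, 34 and 5), 1 of EPB41L3 (30 and 0), both relatives of red cell protein 4.1, and 1 of the B-cell repressor BACH2 (43 and 0). Transcription and chromatin regulators had 12 compared, 6 higher in K562 and 0 in HepG2, with a median of 1.97. These were CUX1 (96 and 14), JARID2 of the Polycomb complex (93 and 30, a call lost with all mapped reads), SMYD3, BACH2, TCF4 (34 and 0) and ZNF521 (26 and 0).

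Other groups showed calls in both directions or few calls. Tyrosine kinases and signalling adaptors had 8 compared, with PTK2 and GAB2 (45 and 4) higher in K562, and PTPRK and the receptor EGFR (0 and 27) higher in HepG2. Membrane traffic genes had 13 compared, with RABGAP1L (29 and 2) higher in K562 and STXBP6 (3 and 63) and EXOC6B (4 and 46) higher in HepG2. GTPase regulators had 5 compared, with FARP1 (1 and 33) higher in HepG2, and ubiquitin and protein modification genes 7, with NEDD4L higher in HepG2. Of 14 long noncoding genes with a long intron 2 were read at one in K562 and 1 in HepG2, and 0 had enough reads to be compared.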

How the data were processed

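Ribosome footprints of K562 and HepG2 were used, 1 table per line into which the 2 samples of that line are pooled per the labels. The deposited values are read counts per annotated junction, as all mapped and as uniquely mapped reads, per the file headers. RNA fragments near 29 bases were isolated from cycloheximide lysates and depleted of ribosomal RNA, per the labels' protocols. The submitters' processing notes name cutadapt, Bowtie2 and STAR 2.6.0 and the build hg38 (GRCh38), and the sources used here do not give the counting program or the annotation release. The members and lists were chosen with earlier results of these data known.

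Unique counts were used as deposited. Of the members 4333 (99.5%) matched a GENCODE 29 intron by position, and coding took precedence over 5′ UTR, 3′ UTR and noncoding. Depth was scaled by TMM in edgeR 4.0.16 on gene sums, with DESeq2 1.42.0 size factors as an alternative. Intervals are Clopper-Pearson or conditional exact ones at 95% from scipy 1.17.1. Ratios and odds ratios needed 20 reads on the junction (and 20 on the rest of the gene), and splice sites 20 reads in each line. Log2 ratios set a count of 0 to a floor of 3 reads, and folds given as at least are bounds of the exact 95% intervals. Of simulated 4-fold differences 37 of 50 were called in the ratio over 68942 junctions, of 8-fold ones 49 of 50, and 6 of 68742 unchanged junctions.

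Named introns are the 15 most read, the 8 at each end of the ratios and of the odds ratios, the 10 largest share differences, the 5 longest, 3 on each side of the length limit, up to 3 per list, and those of ABL1. Others, among them the other junctions of those genes, HBE1 and the called list members, were named after their values were seen. The values of 1 intron past 2-fold against its gene are not reported here.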

Additional observations from a re-analysis of the deposited data

Results flagged for a closer look

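Some long junctions carried reads outside the comparisons. Of 21 long junctions assigned to more than 1 gene, with 84 unique reads in K562 and 19 in HepG2, those above the 3 reads that a count of 0 allows were the ones of ENSG00000283224 and ANKRD44 (7 in K562), PLCXD2 and PHLDB2 (4 in HepG2), SUPT3H and ENSG00000283553 (5 in K562), ENSG00000283549 and UMAD1 (33 in K562, 13 in HepG2), PRR4, PRH1 and TAS2R14 (8 in K562), and FGF13 and ENSG00000283147 (31 in K562).

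Mapped but no unique reads were found at 50 long introns in K562, with 94 such reads, and at 45 in HepG2, with 174. Above 3 reads were introns of RNF220 (7 in HepG2), SRGAP2 (4 in HepG2), FHIT (284939 bases, 6 in K562), COMMD10 (198816 bases, 10 in HepG2), PRIM2 (7 in K562) and ENSG00000283403 (7 in K562). DHRSX, which is listed on both sex chromosomes, had 9 reads in K562 on each copy of its 117141-base intron. In HepG2 that intron had 34 and 53 reads, and the 133593-base intron 6 and 5.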

How the results depend on the processing

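The share ratio of long introns (1.14) turned under all mapped reads (0.987), without the 10 most-read genes of each line in the denominator (0.982), over coding junctions (0.695) and over coding junctions 60 or more bases past the start codon (0.673). It moved to 1.26 without the most-read long intron of each line, 1.24 without GPC3, ENOX2 and FUT8, and 1.11 among reads of genes with a long intron. The coding and 3-gene alternatives were chosen after seeing the data, and both coding ratios include GPC3. With a limit of 200 kb the lines read 72 and 66 introns, 9 and 6 passed 2-fold between lines and 3 and 2 against the gene. With 5 or more reads, 259 and 285 introns were read, and 248 in HepG2 after thinning to the smaller total. Past 2-fold in K562 and HepG2 were 18 and 14 with a minimum of 100 reads, and 64 and 60 with a minimum of 1. Over coding junctions 60 or more bases past the start the counts were 15 and 35. Without 5′ UTR and noncoding junctions they were 23 and 37. Against the gene, 2 and 2 passed with 100 reads. Splice-site shares gave 5 at 40 points and 2 at 50 reads per site. Fewer junctions are compared under the stricter minimums, and the causes of the other shifts were not tested.

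With total reads as scale the log2 ratio turned in COMMD1 (0.22), TCF12 (0.20), the 397263-base intron of SMYD3 (0.17), SEPTIN9 (0.22) and IMMP2L (0.29), and with all mapped reads in GALNT2 (-0.32). With DESeq2 size factors all 74 named introns kept their direction and side. JARID2 and CPQ lost their 2-fold call between lines with all mapped reads and with 99% intervals. Against the gene, PLCB1 lost its call with all mapped reads and without the gene's most-read other junction, and MBNL1 and ST7 under the latter, beside 1 further loss under the former. No paired analysis was possible because each line has 1 pooled table, and for the same reason no replicate could be left out. Depth limits the 3616 unread introns: a count of 0 allows up to 3 reads.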

Other observations

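Coding long introns interrupt the reading frame at other positions than shorter ones. Of those with a start codon 41.1% lie between codons, 41.6% after the first base of a codon and 17.3% after the second, against 45.2%, 32.9% and 21.8% of shorter introns. The exon bases at the junction are alike: 55.3% of long and 54.6% of shorter introns follow an exon that ends in AG, and 26.0% of both have AG before and G after the junction.

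Long-intron reads were more often unique than junction reads as a whole. In K562 88.6% of mapped long-intron reads were unique against 74.4% of all single-gene junction reads, and in HepG2 85.4% against 83.1%.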
